A study of Mus musculus with 8 samples.

Results

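Heat shock proteins and chaperones are the proteins that help other proteins fold, and their genes were followed here in the cerebral cortex of mouse embryos with and without Taf8. A gene was included if it is protein-coding and its symbol names an HSP70 (Hspa), HSP90 (Hsp90), small heat shock protein (Hspb), J-domain protein (Dnaja, Dnajb, Dnajc) or subunit of the cytosolic chaperonin (Cct with a number from 2 to 8), or if it is Hspd1, Hspe1, Hsph1, Tcp1, Hsf1 or Hsf2. This rule used names only and no measured value. It gave 84 of the 27179 genes in the count table, and 74 of them had enough counts to be tested. The pseudogene Dnajc19-ps, with 318 to 416 counts in the intact and 352 to 424 in the deleted libraries, matched by name and was left out because it is not protein-coding.

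RNA from the cortex of 8 embryos was sequenced, 1 embryo a library. The 4 control embryos are labelled Taf8 Intact with genotype Taf8 +/+, and the 4 others Taf8 Deleted with genotype Taf8 -/lox. Neither the embryonic stage nor the recombinase for the lox allele, with the cells it acts in, was stated in the labels read here. The intact embryos carry animal numbers 408.4, 408.5, 408.6 and 409.2, the deleted ones 456.1, 472.1, 477.1 and 486.1. The labels do not say what the number before the point marks, and genotype cannot be told apart from it.

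Chaperones work in relays. J-domain proteins bring unfolded clients to HSP70 and trigger its ATPase, HSP110 proteins and other exchange factors reset HSP70, and HSP90 and the ring-shaped chaperonins finish selected clients, tubulin and actin among those of the cytosolic ring. The endoplasmic reticulum (ER) and mitochondria have their own members. When unfolded protein accumulates in the cytosol, heat shock factor HSF1 binds repeats of GAA and TTC, the heat shock element, in front of chaperone genes, while the ER has a separate response through XBP1, ATF6 and PERK. TAF8 belongs to TFIID, the complex that recognises core promoters for RNA polymerase II. Developing cortex makes abundant tubulin and growing axons, and constitutive chaperones are highly expressed in it.

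Each library held 39590959 to 44788200 counts, and levels are given as CPM (counts scaled to a common library size) on library sizes scaled with TMM factors. Taf8 itself had 1222 to 1491 counts in the intact libraries and 14 to 30 in the deleted ones, so that every library had the Taf8 level of its label. Of 10 markers of cortical progenitors and neurons, none was at 0. Their summed level was 6417 to 6876 CPM in the intact and 4766 to 5177 CPM in the deleted libraries. Of these markers 8 were lower, and 1, the progenitor marker Pax6, rose by 0.48 on the log2 scale (adjusted p = 0.000118, edgeR). Tubb3 did not pass. Markers of other cells moved as well. Of all 16074 genes tested, 30.6% were higher and 32.9% lower. All 10 endothelial markers were higher (sum 243 to 275 CPM in the intact, 286 to 351 CPM in the deleted libraries), as were all 8 pericyte markers (202 to 223 and 242 to 283 CPM) and 6 of the 9 tested meningeal fibroblast markers (49.3 to 91.0 and 75.4 to 236 CPM). Among microglial markers 4 of 9 were higher and 1 lower (55.2 to 63.9 and 58.8 to 71.6 CPM), and among blood markers 3 of 6 were higher (130.4 to 173 and 168 to 223 CPM). None of 6 choroid plexus markers passed the test, their sum being 14.3, 17.5, 19.7 and 301 CPM in the intact and 930.5, 67.6, 157 and 14.5 CPM in the deleted libraries. Muscle and skin markers summed to at most 2.73 CPM in every library, and none of their 3 tested genes passed. In bulk tissue, fewer cells of a type and less RNA per cell cannot be told apart.

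The sequences before the start sites of 8 of these genes are shown because the results below return to them. They are RefSeq promoter windows of build GRCm38.p6, written 5′ to 3′ on the strand of the gene and ending at the base before the annotated start. Windows from 250 bases before to 50 bases after the start were held for 68 of the 84 genes, 87 windows in all. In the first set the capitals mark the 2-unit heat shock element, GAANNTTC or TTCNNGAA, searched on both strands, and in Hspb6 also the TATA box letters TATAAA. The set holds the paired heat-inducible HSP70 genes Hspa1a (chr17:34972157-34972286, minus strand) and Hspa1b (chr17:34959239-34959368, minus strand), the small heat shock protein genes Hspb1 (chr5:135887789-135887918, plus strand) and Hspb6 (the second of its annotated starts, chr7:30553171-30553300, plus strand), and the mitochondrial cochaperonin gene Hspe1 (chr1:55088018-55088147, plus strand).
Hspa1a: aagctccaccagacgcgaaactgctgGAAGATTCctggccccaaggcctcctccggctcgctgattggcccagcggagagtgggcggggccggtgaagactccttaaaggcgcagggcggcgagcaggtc
Hspa1b: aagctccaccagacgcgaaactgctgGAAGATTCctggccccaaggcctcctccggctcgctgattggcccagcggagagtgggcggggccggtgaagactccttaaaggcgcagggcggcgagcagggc
Hspb1: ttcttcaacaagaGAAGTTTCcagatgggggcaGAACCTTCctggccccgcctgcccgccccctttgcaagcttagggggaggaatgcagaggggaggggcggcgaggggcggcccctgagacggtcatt
Hspb6: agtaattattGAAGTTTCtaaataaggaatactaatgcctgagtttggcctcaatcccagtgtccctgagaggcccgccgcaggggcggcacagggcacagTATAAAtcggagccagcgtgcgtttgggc
Hspe1: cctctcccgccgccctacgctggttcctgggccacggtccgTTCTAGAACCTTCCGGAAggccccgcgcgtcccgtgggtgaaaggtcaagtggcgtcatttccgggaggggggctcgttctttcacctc
Over these 130 bases Hspa1a and Hspa1b differed at 1 base, and each had 1 element, beginning 104 bases before the start. Hspb1 had elements at 117 and 97 bases before its start. Hspe1 had 3 overlapping ones at 89, 84 and 79 bases. Hspb6 had 1 at 120 bases, and TATAAA at 29 bases, before its second annotated start. The window of its first annotated start held neither, and which start was used was not tested.

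In the second set the capitals mark the ER stress element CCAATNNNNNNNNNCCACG, on either strand, in front of 3 genes of ER chaperones: Hspa5 (chr2:34771890-34772089, plus strand), Hsp90b1 (chr10:86705445-86705644, minus strand) and Dnajc3 (chr14:118937732-118937931, plus strand).
Hspa5: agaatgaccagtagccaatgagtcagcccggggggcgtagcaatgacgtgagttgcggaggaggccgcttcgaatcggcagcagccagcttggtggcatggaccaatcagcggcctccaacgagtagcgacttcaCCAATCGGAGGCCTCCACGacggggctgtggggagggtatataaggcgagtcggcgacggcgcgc
Hsp90b1: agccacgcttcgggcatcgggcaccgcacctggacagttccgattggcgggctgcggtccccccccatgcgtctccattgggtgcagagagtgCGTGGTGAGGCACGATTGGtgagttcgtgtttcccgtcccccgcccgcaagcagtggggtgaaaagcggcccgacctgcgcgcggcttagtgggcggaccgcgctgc
Dnajc3: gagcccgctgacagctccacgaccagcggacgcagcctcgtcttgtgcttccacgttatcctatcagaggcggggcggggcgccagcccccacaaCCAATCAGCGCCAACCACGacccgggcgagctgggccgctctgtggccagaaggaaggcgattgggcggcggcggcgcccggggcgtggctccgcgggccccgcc
The element began 65, 107 and 105 bases before the start of Hspa5, Hsp90b1 and Dnajc3, and in Hsp90b1 it read on the opposite strand.

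Chaperone genes did not move one way in Taf8-deleted cortex. Of the 74 tested, 22 were higher and 29 lower at an adjusted p under 0.05 in edgeR's quasi-likelihood test, and 23 did not pass. The 51 called genes are 68.9% of those tested. Among all 16074 genes tested, 63.5% were called in either direction, 30.6% higher and 32.9% lower, so the share called lay close to the background. The median log2 fold change, deleted minus intact, was -0.07 for the chaperone genes and 0.00 for all genes tested. Most differences were small: called chaperone genes had a median absolute log2 fold change of 0.400, against 0.398 for all called genes, and 18 chaperone genes (24.3%, against 25.0% of all genes tested) were called with a change of at least 0.5. Only 4 (5.41%, against 8.39%) were called with a change of at least 1, namely Cct6b, Hspb6 and Hspb1 among those higher and Hspa12a among those lower. Of these, Cct6b and Hspb1 passed the count filter only through their counts in the deleted libraries, where they are high. The libraries of the groups did not overlap for 49 of the 74 genes, or 66.2%, where 57.7% of all genes tested had separate groups.

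**Figure D1:**
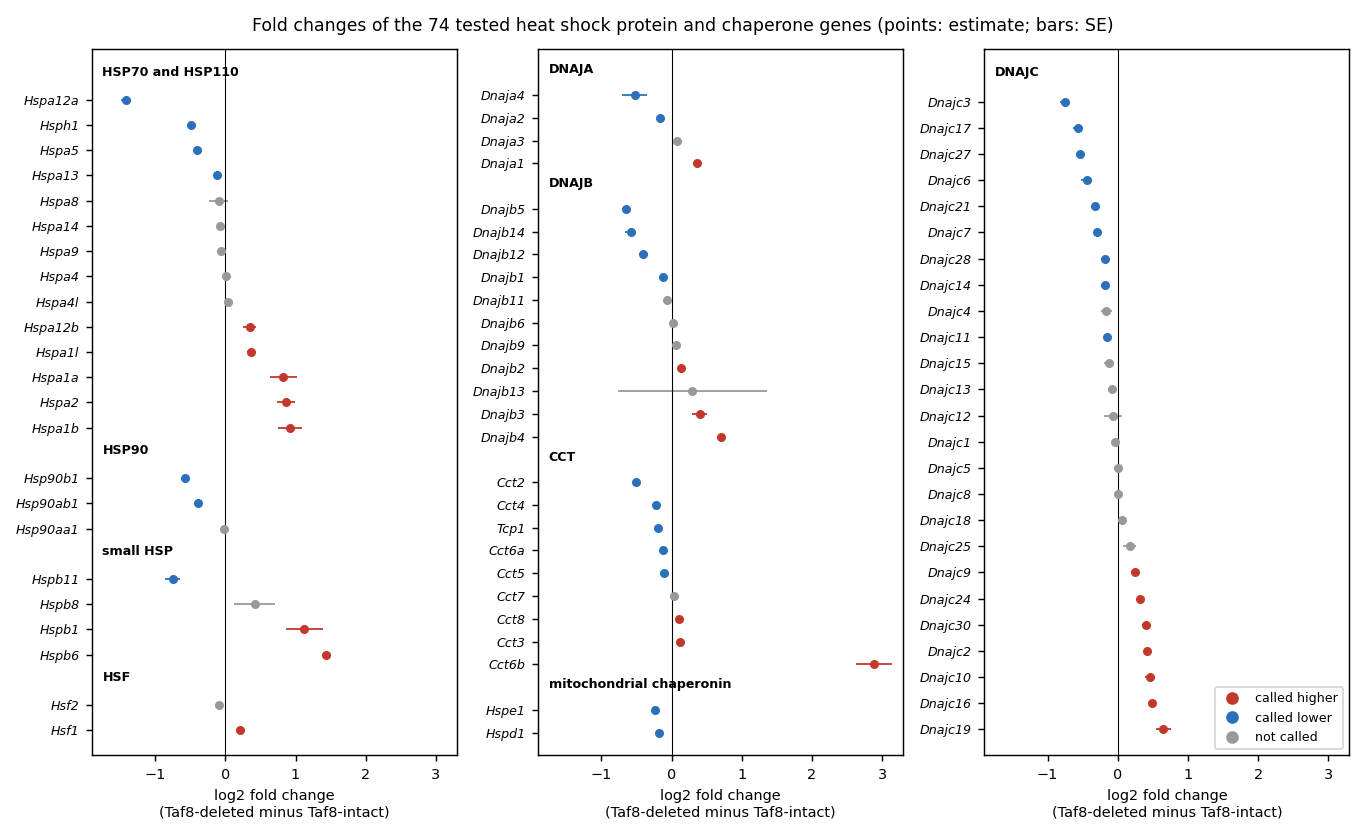
Log2 fold change (Taf8-deleted minus Taf8-intact, horizontal axis) of the 74 tested chaperone genes, grouped by family, with points coloured by call and bars giving the SE. Values run from -1.41 for Hspa12a to 2.88 for Cct6b, and most families hold genes on both sides of 0.

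Abundant and scarce chaperone genes leaned opposite ways. Among the 52 chaperone genes whose mean log2 CPM was at least 4, 24 were lower and 11 higher, and the median log2 fold change was -0.08. Among the 22 below that level, 11 were higher and 5 lower, with a median of 0.33. All genes tested leaned the same ways: above the level 3733 of 9142 were lower and 2697 higher (median -0.04), and below it 2222 of 6932 were higher and 1557 lower (median 0.11). Summed over all 84 genes, chaperone transcripts were 11675, 12221, 11929.6 and 12192 CPM in the intact and 10295, 10649.9, 10443 and 10761 CPM in the deleted libraries. The groups did not overlap, and the mean went from 12004 ± 256 to 10537 ± 208 CPM (SD, n = 4 each). That is 1.20% and 1.05% of the TMM-scaled library size, which is not the share of raw counts. The TMM factors were 0.971 to 0.987 in the intact and 1.013 to 1.028 in the deleted libraries. The size of the difference between the sums therefore depends in part on this scaling. Hsp90ab1 alone made up a large part of both sums. Without it the ratio of deleted to intact was 0.915 in place of 0.878.

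**Figure D2:**
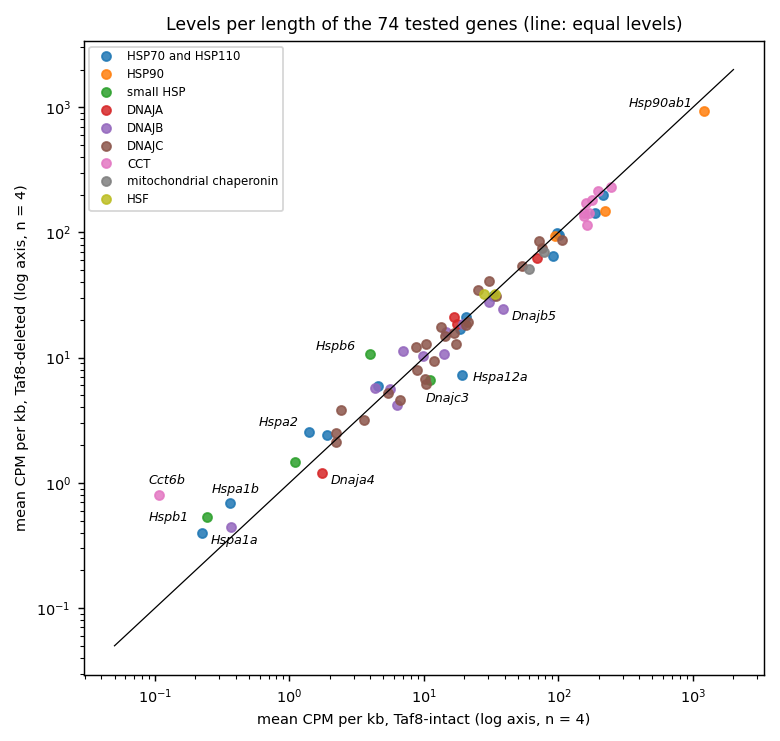
Mean level per transcript length (CPM per kilobase, log axes) of the 74 tested chaperone genes in Taf8-intact (horizontal) and Taf8-deleted (vertical) cortex, coloured by family, with the line of equal levels. Hsp90ab1 stands at the top right with 1216 and 933 CPM per kilobase, and Cct6b, Hspb1, Hspa1a and Hspa1b lie above the line at the lower end.

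The heat shock factors moved little. Hsf1, the master regulator of the heat shock response, had 56.4, 56.6, 55.6 and 55.8 CPM in the intact and 70.3, 64.0, 65.4 and 61.0 CPM in the deleted libraries. Every deleted library lay above every intact one, and the gene rose by 0.22 ± 0.04 (SE) on the log2 scale (adjusted p = 0.000695, edgeR). Hsf2, a second factor with roles in brain development, had 87.2, 94.3, 90.2 and 84.0 CPM against 83.1, 82.0, 80.5 and 90.2 CPM. Its groups overlapped, with a log2 fold change of -0.08 ± 0.04 and an adjusted p of 0.123. The call for Hsf2 turned on 1 library, since without deleted replicate 4 the fold change was -0.11 with an adjusted p of 0.0368.

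The classic heat-inducible HSP70 genes were barely expressed in either group and rose in deleted cortex. Hspa1a, gene ID 193740 on chromosome 17 from 34969359 to 34972156 (GRCm38), had 25, 21, 30 and 29 raw counts in the intact and 50, 55, 52 and 36 in the deleted libraries. These counts are 0.581, 0.495, 0.730 and 0.688 CPM against 1.10, 1.25, 1.17 and 0.898 CPM, with no overlap. Hspa1b (gene ID 15511) on chromosome 17, from 34956429 to 34959238, had 0.976, 0.966, 1.22 and 0.901 CPM in the intact and 1.91, 2.18, 2.15 and 1.47 CPM in the deleted libraries, again with no overlap. The genes are known as near-identical copies, and reads may have been split between them. Their sum rose by 0.89 ± 0.15 (SE) on the log2 scale (adjusted p = 0.000268, edgeR), from 1.46 to 1.95 CPM in the intact to 2.37 to 3.43 CPM in the deleted libraries. Hspa1a and Hspa1b taken singly rose by 0.82 ± 0.19 (adjusted p = 0.0024) and 0.92 ± 0.17 (adjusted p = 0.000529). Their level per length, at most 0.685 CPM per kilobase for Hspa1b in deleted cortex, stood far below the 201 CPM per kilobase of the constitutive Hspa8 in the same cortex. Exons on the other strand, annotated as Gm20481, cover 19.0% of the exonic bases of Hspa1a, and the unstranded libraries cannot tell the strands apart.

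The HSP70 genes Hspa2 and Hspa1l, both known from testis, were higher too. Hspa2 had 3.25, 4.41, 3.50 and 3.91 CPM in the intact and 7.71, 6.58, 7.50 and 5.69 CPM in the deleted libraries. All deleted libraries lay above all intact ones, and Hspa2 rose by 0.87 ± 0.12 (SE) on the log2 scale (adjusted p = 6.36e-05, edgeR). Hspa1l, which lies head to head with Hspa1a 547 bases away, rose by 0.37 ± 0.06 from 11.0 ± 0.590 to 14.2 ± 0.528 CPM (SD, n = 4 each; adjusted p = 0.000182). Exons of Gm10501 on the other strand cover 71.9% of its exonic bases, which leaves the source of its reads uncertain. Hspa12b, a distant HSP70 relative known from endothelial cells, had 5.18, 5.87, 5.01 and 6.14 CPM in the intact and 6.99, 7.53, 7.46 and 6.26 CPM in the deleted libraries. It rose by 0.35 ± 0.10 (adjusted p = 0.00677), and the 10 endothelial markers summed to 246, 267, 243 and 275 CPM against 318, 326, 351 and 286 CPM in the same order. Their part in the Hspa12b difference was not tested, and without deleted replicates 2 and 3 its adjusted p was 0.0987 with a fold change of 0.25.

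The constitutive HSP70s divided by member. Hspa12a, an HSP70-like protein abundant in brain, had the largest fall of all the chaperone genes tested. Hspa12a (gene ID 73442) on chromosome 19, from 58795750 to 58943672, had 103, 101, 129.5 and 108 CPM in the intact and 39.9, 41.3, 42.8 and 41.6 CPM in the deleted libraries. The deleted libraries sat close together and far below the intact ones, and the gene fell by 1.41 ± 0.07 (SE) on the log2 scale (adjusted p = 8.12e-08, edgeR). The summed cortical markers also stood lower in deleted cortex, though Pax6 rose, as given above, and their part in this was not tested. Hsph1, the HSP110 that resets cytosolic HSP70, had 302, 328, 315 and 317 CPM in the intact and 219, 228, 215 and 237 CPM in the deleted libraries. Hsph1 fell by 0.49 ± 0.04 (adjusted p = 4.37e-07), and the groups did not overlap. The other HSP110 genes, Hspa4 and Hspa4l, did not pass the test, with log2 fold changes of 0.01 and 0.03. Hspa8, the most abundant cytosolic HSP70, had 358, 386, 525 and 532 CPM in the intact and 421, 416, 419 and 434 CPM in the deleted libraries. The intact libraries fell into a low and a high pair on either side of the deleted ones, so its log2 fold change of -0.09 ± 0.13 did not pass (adjusted p = 0.576). Hspa9, the mitochondrial HSP70, and Hspa14, which works at the ribosome, did not pass either (log2 fold changes -0.07 and -0.08). In all, 5 of the 14 HSP70 and HSP110 genes were higher and 4 lower, with a median of -0.03.

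**Figure D3:**
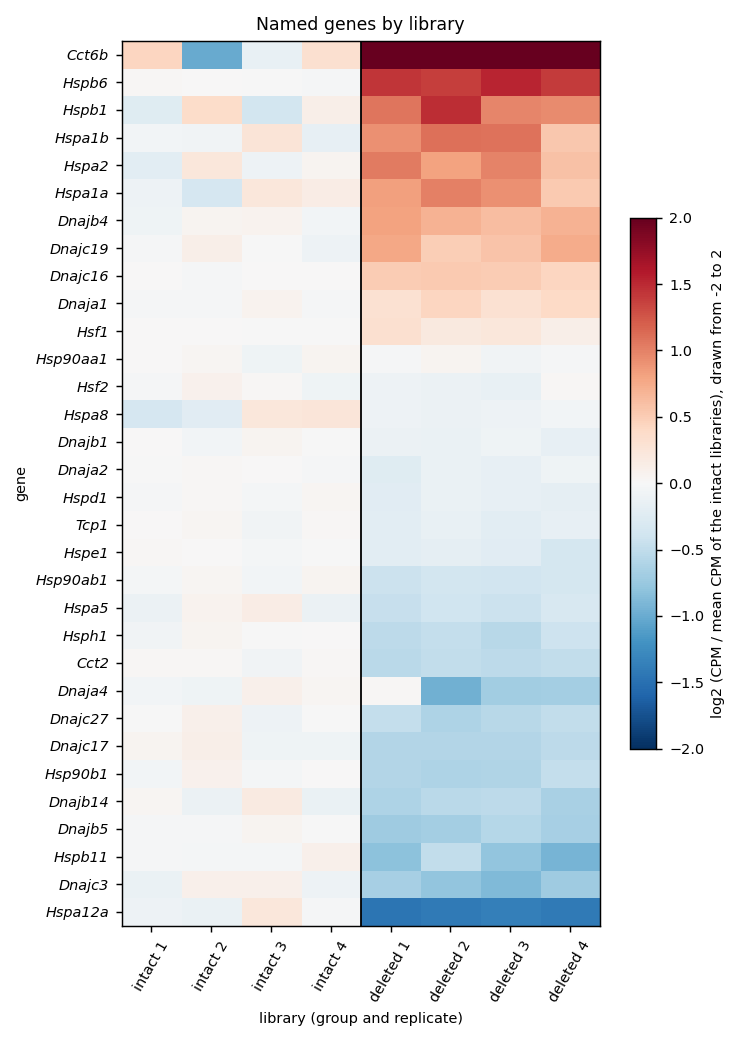
Level of each named chaperone gene in each of the 8 libraries relative to the mean of the 4 intact libraries (log2 ratio, colour drawn from -2 to 2), with genes in rows ordered by fold change and libraries in columns. Hspa12a is lower in all 4 deleted libraries, Cct6b and Hspb6 are higher in all 4, and Hspa8 differs among the intact libraries.

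Of the HSP90 genes, the constitutive cytosolic form and the ER form fell while the inducible cytosolic form did not pass the test. Hsp90ab1, the constitutive form and the most abundant chaperone transcript per length in both groups, had 2964, 3129, 2934 and 3167 CPM in the intact and 2262, 2366, 2339 and 2389 CPM in the deleted libraries. The groups were far apart, and Hsp90ab1 fell by 0.38 ± 0.03 (SE) on the log2 scale (adjusted p = 1.1e-06, edgeR). Hsp90aa1, the inducible form, had 270.1, 276, 253 and 279.5 CPM against 264, 279.7, 258 and 266 CPM. These values overlap throughout, with a log2 fold change of -0.01 ± 0.04 (adjusted p = 0.771) whose sign turned to 0.04 with upper-quartile factors and 0.05 with library totals. Hsp90b1 of the ER fell by 0.57 and is described with the ER genes. The summed level of Hsp90ab1, Hsp90aa1 and Hsp90b1 went from 3926 ± 148 to 3015 ± 67.5 CPM (SD, n = 4 each). Trap1, the mitochondrial HSP90, falls outside the naming rule and is given with the partners. Hsp90ab1 lies 1.91 Mb from Taf8 on chromosome 17.

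Partners of HSP90 and HSP70 showed both directions. Beside these and the later partner lists stand all genes tested, of which 32.9% were lower and 30.6% higher. Of 15 genes listed with the HSP90 cochaperones 7 were lower and 3 higher (median -0.08). The list holds Trap1, an HSP90 and not a cochaperone, which is 1 of the 3. Fkbp4, a peptidyl-prolyl isomerase of steroid receptor complexes, fell by 0.55 (adjusted p = 3.33e-08, edgeR) from 439.8 ± 10.4 to 301 ± 6.72 CPM (SD, n = 4 each). Stip1, which hands clients from HSP70 to HSP90, fell by 0.37 from 298 ± 8.86 to 231 ± 6.10 CPM. Ahsa2, an ATPase activator, fell by 0.48 (adjusted p = 8.1e-08), with 50.2% of its exonic bases under exons of other genes on the opposite strand. Trap1, the mitochondrial HSP90, rose by 0.53 (adjusted p = 4.58e-08) from 74.8 ± 1.71 to 108 ± 2.42 CPM. Of 14 HSP70 cochaperones 5 were higher and 3 lower (median 0.01). Hyou1, the HSP110 of the ER, fell by 0.55 (adjusted p = 7.14e-08). The exchange factors Sil1, which serves HSP70 in the ER, and Bag1, which serves it in the cytosol, rose by 0.83 (adjusted p = 9.93e-07) and 0.31 (adjusted p = 2.09e-06).

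The main chaperones of the ER lumen were lower in deleted cortex. Hspa5, the ER HSP70 also known as BiP, had 454, 515, 544 and 450.3 CPM in the intact and 356, 373, 366 and 393 CPM in the deleted libraries. Hsp90b1, the ER HSP90, had 586, 645, 591 and 609 CPM against 404, 395, 402 and 435 CPM. Dnajc3, a J-domain protein of the ER lumen, had 49.4, 57.8, 58.0 and 50.3 CPM against 34.1, 31.3, 29.3 and 32.8 CPM. In each of these every deleted library lay below every intact one. Hspa5 fell by 0.40 ± 0.06 (SE; adjusted p = 0.000149, edgeR), Hsp90b1 by 0.57 ± 0.04 (adjusted p = 1.87e-07) and Dnajc3 by 0.76 ± 0.06 (adjusted p = 1.16e-06) on the log2 scale. Exons of 1810014B01Rik on the opposite strand cover 10.3% of the exonic bases of Hsp90b1. These 3 genes carry the ER stress element printed above. It was chosen after the values were seen, and was present in 3 of the 87 chaperone windows (3.45%) and in 39 of all 32851 windows (0.119%).

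Other ER members of the families were higher, slightly lower or did not pass. The membrane-anchored Dnajb12 and Dnajb14, which fell, and Dnajc16, which rose, are described with their families. Dnajc10, an ER disulfide reductase with a J domain, had 104, 118, 90.6 and 96.3 CPM in the intact and 137, 144, 138 and 146 CPM in the deleted libraries, and rose by 0.46 ± 0.07 (adjusted p = 0.000166, edgeR). Dnajb9 and Dnajb11, cochaperones of Hspa5, and Dnajc1 did not pass the test, with log2 fold changes of 0.06, -0.07 and -0.04. Hspa13 fell by 0.12 (adjusted p = 0.00547), a call lost with upper-quartile factors (adjusted p = 0.0945). Among 19 listed ER chaperones and genes of the unfolded protein response, 11 were lower and 3 higher (median -0.14). Manf, a secreted ER stress protein, had the smallest p and fell by 0.85 (adjusted p = 1.69e-08), from 94.6, 102, 104 and 91.8 CPM to 53.3, 54.4, 53.1 and 57.2 CPM. The disulfide isomerase genes Pdia6 and Pdia4 fell by 0.57 (adjusted p = 7.69e-08) and 0.71 (adjusted p = 1.52e-07). Xbp1, a transcription factor of the response, had 77.4, 89.2, 97.2 and 81.1 CPM against 37.5, 41.6, 40.1 and 43.8 CPM, a fall of 1.08 ± 0.07 (adjusted p = 3.47e-07). The sensors were split: Atf6 rose by 0.15, Eif2ak3 (PERK) fell by 0.10, and Ern1 (IRE1) did not pass with a log2 fold change of 0.02. P4hb, a further disulfide isomerase, rose by 0.36 (adjusted p = 1.95e-06) from 225 ± 7.01 to 289 ± 7.76 CPM (SD, n = 4 each).

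**Figure D4:**
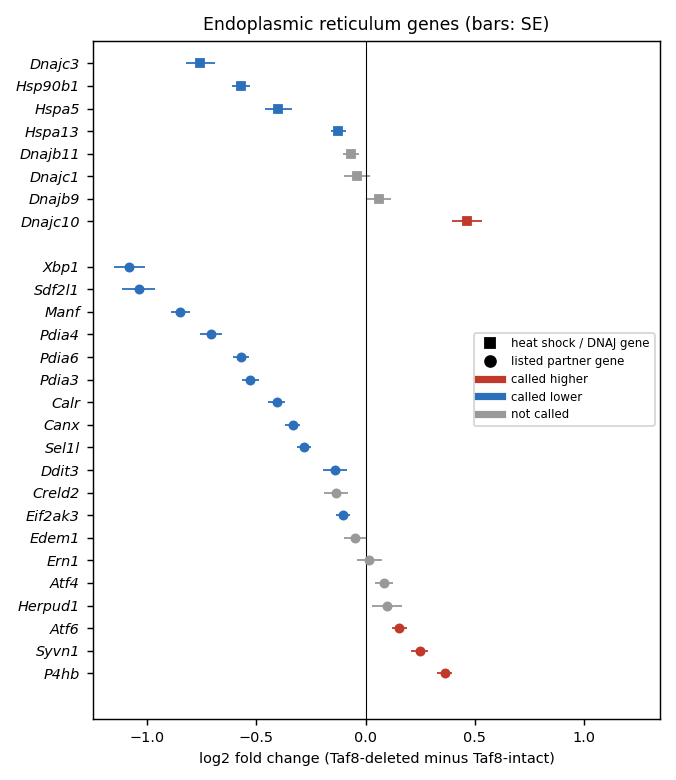
Log2 fold change (Taf8-deleted minus Taf8-intact, horizontal axis) of 8 ER genes of the families (squares) and 19 listed ER partner genes (circles). Bars give the SE and colour the call. The membrane-anchored Dnajb12, Dnajb14 and Dnajc16 are not drawn. Dnajc3, Hsp90b1 and Hspa5 lie on the lower side with Xbp1 at -1.08, while Dnajc10 at 0.46 and P4hb at 0.36 lie on the higher side.

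Small heat shock proteins, which hold unfolded proteins without using ATP, were low throughout. Of 8 genes 4 could be tested, and 2 rose and 1 fell, by 0.75 to 1.44 on the log2 scale. Hspb6 (gene ID 243912) on chromosome 7, from 30552535 to 30555443, known from muscle and vessel walls, had 5.37, 5.30, 5.23 and 5.19 CPM in the intact and 14.2, 13.8, 15.2 and 13.8 CPM in the deleted libraries. Both groups were tight and far apart, and Hspb6 rose by 1.44 ± 0.06 (SE) on the log2 scale (adjusted p = 4.55e-09, edgeR), the smallest p of all the chaperone genes. Its neighbour Proser3, whose annotated start lies 235 bases from the first start of Hspb6 on the other strand, fell by 0.52. Hspb1, the heat-inducible HSP27, had 8, 12, 7 and 10 raw counts in the intact and 21, 27, 19 and 17 in the deleted libraries. It rose by 1.13 ± 0.26 (adjusted p = 0.00238) at 0.219 ± 0.0512 against 0.481 ± 0.0889 CPM (SD, n = 4 each), so that its fold rests on few reads. Hspb1 passed the count filter only because of its counts in the deleted libraries. Hspb11, also a subunit of the intraflagellar transport machinery of cilia, had 6.09, 6.06, 6.01 and 6.64 CPM against 3.50, 4.40, 3.57 and 3.27 CPM. Hspb11 fell by 0.75 ± 0.10 (adjusted p = 5.31e-05), and so did Lrrc42, which starts 159 bases from it on the other strand, by 0.73.

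Cell markers moved beside the small heat shock genes. The pericyte markers summed to 223, 223, 202 and 212 CPM in the intact and 265, 264, 283 and 242 CPM in the deleted libraries, and the meningeal ones to 58.5, 52.5, 49.3 and 91.0 CPM against 156, 199, 236 and 75.4 CPM. The part of other cells in the small heat shock genes was not tested. Hspb8 had 1.46, 1.84, 2.21 and 2.49 CPM against 3.79, 3.00, 2.60 and 1.27 CPM and did not pass (adjusted p = 0.234), but without deleted replicate 4 its log2 fold change was 0.65 with an adjusted p of 0.0103. Hspb2, Hspb3, Hspb7 and Hspb9 had at most 13 counts in any library and were not tested.

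Of the 4 DNAJA genes, the J-domain proteins most like the bacterial DnaJ, 1 rose, 2 fell and 1 did not pass. Dnaja1 had 94.8, 94.1, 101 and 94.3 CPM in the intact and 119, 129.8, 118 and 126 CPM in the deleted libraries. All deleted libraries were higher, and Dnaja1 rose by 0.36 ± 0.04 (SE) on the log2 scale (adjusted p = 7.63e-06, edgeR). Its close relative Dnaja2 had 197, 202, 200.0 and 194 CPM against 167, 180.2, 177 and 186 CPM and fell by 0.16 ± 0.04 (adjusted p = 0.00253). Dnaja4 had 5.02, 4.93, 5.60 and 5.34 CPM against 5.32, 2.68, 3.23 and 3.24 CPM. Deleted replicate 1 lay within the intact range, and the fall of 0.53 ± 0.18 (adjusted p = 0.0241) was lost on leaving out any of 5 single libraries (intact replicates 3 and 4, deleted replicates 2, 3 and 4), with adjusted p from 0.0507 to 0.0667, and without deleted replicates 2 and 3 (-0.28, adjusted p = 0.212). Exons of Wdr61 on the other strand cover 44.1% of the exonic bases of Dnaja4. Dnaja3, the mitochondrial member, had a log2 fold change of 0.07.

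Among 11 tested DNAJB genes 3 rose and 4 fell (median 0.01), and close relatives went opposite ways. Dnajb4 and Dnajb5 are relatives of Dnajb1, the HSP40 that is induced by heat with Hspa1a. Dnajb4 had 19.3, 21.2, 21.4 and 19.7 CPM in the intact and 35.6, 32.8, 31.2 and 33.0 CPM in the deleted libraries, and rose by 0.70 ± 0.05 (SE; adjusted p = 3.37e-07, edgeR). Dnajb5 had 87.7, 87.5, 92.3 and 88.9 CPM against 54.6, 55.5, 59.7 and 56.5 CPM, and fell by 0.66 ± 0.04 (adjusted p = 2.26e-08). Neither pair of groups overlapped. Dnajb1 had 69.0, 66.5, 71.6 and 68.3 CPM against 63.2, 63.0, 64.6 and 61.4 CPM, a fall of 0.13 ± 0.03 (adjusted p = 0.00553) that did not pass with library totals (-0.07, adjusted p = 0.117) or upper-quartile factors (-0.07, adjusted p = 0.0842). Dnajb14, anchored in the ER membrane, had 12.04, 10.8, 13.3 and 10.7 CPM against 7.67, 8.03, 8.11 and 7.46 CPM and fell by 0.58 ± 0.08 (adjusted p = 4.53e-05). Dnajb12, its membrane-anchored relative, fell by 0.40. Dnajb7 and Dnajb8 had at most 11 counts in any library and were not tested. Dnajb13, known from motile cilia, had 0.116, 0.377, 0.341 and 0.854 CPM against 1.66, 0.113, 0.203 and 0.0499 CPM and did not pass (adjusted p = 0.825). Its highest libraries, intact replicate 4 and deleted replicate 1, were those with the highest choroid plexus sums, 301 and 930.5 CPM, whose part in this was not tested. Without deleted replicate 1 its log2 fold change turned to -1.73 with an adjusted p of 0.0477.

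The DNAJC family, whose members share little but the J domain, had 7 genes higher, 9 lower and 9 not called among 25 tested (median -0.07). Besides Dnajc3, the falls of at least 0.5 were in Dnajc17 and Dnajc27. Dnajc17, linked to splicing, had 10.6, 11.0, 9.61 and 9.58 CPM in the intact and 6.79, 6.81, 6.78 and 7.08 CPM in the deleted libraries and fell by 0.57 ± 0.07 (SE; adjusted p = 1.97e-05, edgeR). Dnajc27, a Rab-like GTPase with a J domain, had 30.9, 33.5, 29.1 and 31.0 CPM against 22.3, 20.3, 21.2 and 22.1 CPM and fell by 0.53 ± 0.05 (adjusted p = 2.98e-06). In both, all deleted libraries lay below all intact ones. Dnajc6, the neuronal auxilin that uncoats clathrin vesicles with HSP70, fell by 0.44 from 97.2 ± 10.8 to 71.5 ± 4.82 CPM (SD, n = 4 each; adjusted p = 0.00056). Dnajc5, the cysteine string protein of synaptic vesicles, stood at 277 ± 9.60 and 278 ± 3.67 CPM and did not pass (adjusted p = 0.839).

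Rises in the DNAJC family reached 0.65. Dnajc19, of the mitochondrial inner membrane, had 2.42, 2.69, 2.46 and 2.30 CPM in the intact and 4.23, 3.47, 3.66 and 4.14 CPM in the deleted libraries and rose by 0.65 ± 0.11 (SE; adjusted p = 0.000275, edgeR). Its pseudogene copy can share reads with it, and the split between the copies is uncertain. Dnajc16, of the ER membrane, had 34.3, 33.4, 34.2 and 34.2 CPM against 48.6, 48.7, 48.3 and 45.8 CPM and rose by 0.49 ± 0.04 (adjusted p = 2.27e-07). Each had no overlap between the groups. Dnajc2, which works with HSP70 at the ribosome, rose by 0.42 from 62.3 ± 2.26 to 83.4 ± 5.07 CPM (SD, n = 4 each; adjusted p = 5.83e-06). The other called genes were Dnajc30, Dnajc24 and Dnajc9 among those higher, with log2 fold changes of 0.40, 0.32 and 0.25, and Dnajc21, Dnajc7, Dnajc28, Dnajc14 and Dnajc11 among those lower, from -0.33 to -0.16. Dnajc5b, Dnajc5g and Dnajc22 had too few counts for the main test. With no filter Dnajc22, at 8, 14, 16 and 9 counts in the intact and 7, 3, 4 and 5 in the deleted libraries, had a log2 fold change of -1.33 (adjusted p = 0.0116). Dnajc5g had no count in any library, which allows up to 0.0758 CPM of the library total in the shallowest library (3 counts, counting error only).

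The cytosolic chaperonin is a double ring of 8 different subunits, and their transcripts shifted by unequal amounts. Cct2 had 323, 322, 304 and 322 CPM in the intact and 218, 226, 222 and 227 CPM in the deleted libraries. Cct2 fell by 0.51 ± 0.03 (SE) in log2 terms (adjusted p = 7.09e-08, edgeR), the largest fall of the ring. Tcp1, the alpha subunit, had 367, 377, 349 and 371 CPM against 316, 329.9, 315 and 326 CPM and fell by 0.19 ± 0.03 (adjusted p = 0.000387). Neither gene had overlapping groups. Cct4 fell by 0.22 (adjusted p = 8.24e-05) from 331 ± 9.69 to 283 ± 6.58 CPM (SD, n = 4 each). Cct6a and Cct5 fell by 0.12 (adjusted p = 0.0106) and 0.11 (adjusted p = 0.0111), Cct3 and Cct8 rose by 0.11 each (adjusted p = 0.00849 and 0.0127), and Cct7 did not pass with 0.04 (adjusted p = 0.332). These small changes depended on the settings. Cct5 and Cct6a did not pass with library totals or upper-quartile factors, under which Cct7 passed as higher (0.10 with library totals, adjusted p = 0.0161), nor without intact replicate 2 or deleted replicate 1, and further Cct5 without intact replicate 4 and Cct6a without deleted replicate 3 (adjusted p from 0.0634 to 0.0897). Cct3 and Cct8 did not pass without deleted replicates 2 and 3 (adjusted p = 0.0636 and 0.111). Per length, the 8 subunits lay between 155 and 248 CPM per kilobase in the intact and between 114 and 229.9 CPM per kilobase in the deleted cortex, so that the ratio of the highest to the lowest went from 1.60 to 2.02.

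**Figure D5:**
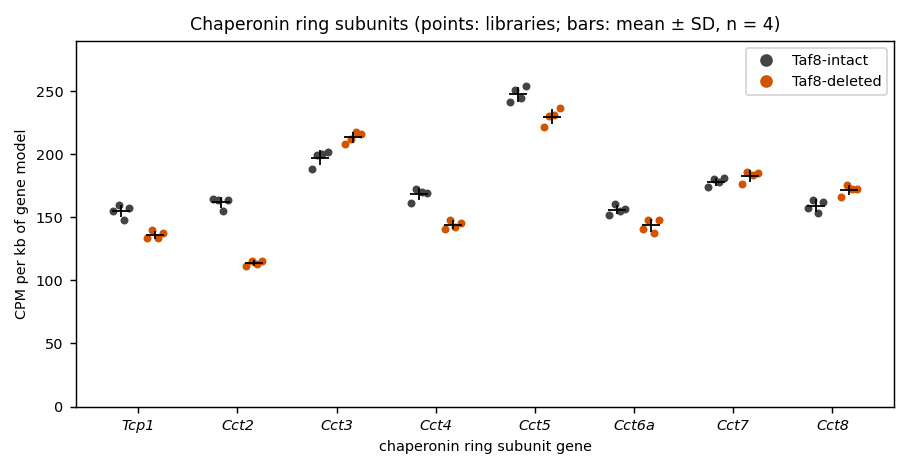
Levels of the 8 subunit transcripts of the cytosolic chaperonin ring (CPM per kilobase of transcript, vertical axis), with 1 point for each library and crosses for the mean and SD of the 4 intact and 4 deleted libraries. Cct2 shows the widest gap, from 162 to 114 CPM per kilobase, and Cct7 lies at 178 and 183.

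Outside the ring, both low chaperonin relatives known from testis stood higher in deleted cortex. Cct6b (gene ID 12467) on chromosome 11, from 82713112 to 82764388, had 11, 4, 7 and 10 raw counts in the intact and 63, 68, 68 and 48 in the deleted libraries. At 0.189 ± 0.0732 against 1.41 ± 0.163 CPM (SD, n = 4 each) it rose by 2.88 ± 0.26 (SE) on the log2 scale (adjusted p = 1.11e-06, edgeR), the largest change of all the chaperone genes tested. Cct6b passed the count filter only because of its counts in the deleted libraries. Its level stayed low, at 0.798 CPM per kilobase in deleted cortex against 144 for the ring subunit Cct6a. Zfp830, which starts 24 bases from it on the other strand, did not pass (log2 fold change -0.11). Cct8l1 had 1, 1, 3 and 1 counts in the intact and 17, 14, 7 and 15 in the deleted libraries, too few for the main test, and with no filter its log2 fold change was 3.00 (adjusted p = 8.63e-05).

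Most cofactors of the ring that passed the test were lower. Of 14 prefoldin and chaperonin cofactors 9 fell and 1 rose (median -0.19), where 32.9% of all genes tested were lower and 30.6% higher. Tbce and Tbcc, folding factors that act on tubulin after the ring, went apart: Tbce fell by 0.82 (adjusted p = 2.06e-07, edgeR) from 28.4 ± 1.68 to 16.1 ± 0.948 CPM, while Tbcc rose by 0.75 (adjusted p = 1.11e-07) from 18.7 ± 0.837 to 31.5 ± 1.38 CPM (SD, n = 4 each). Pfdn4, a subunit of the prefoldin complex that delivers clients, fell by 0.76 (adjusted p = 1.86e-07), with 28.7% of its exonic bases under exons on the opposite strand.

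Both genes of the mitochondrial chaperonin fell by small amounts. Hspd1, the HSP60 barrel, had 179.5, 185, 177 and 187 CPM in the intact and 156, 166, 163 and 161 CPM in the deleted libraries and fell by 0.17 ± 0.03 (SE; adjusted p = 0.000654, edgeR). Hspe1, the HSP10 lid, had 47.4, 47.0, 45.6 and 46.6 CPM against 40.5, 41.2, 39.9 and 36.4 CPM and fell by 0.24 ± 0.04 (adjusted p = 0.000368). All deleted libraries were below all intact ones in both. The genes lie head to head on chromosome 1 with overlapping 5′ ends (Hspd1 from 55077833 to 55088243 on the minus strand, Hspe1 from 55088148 to 55091317 on the plus strand), so the elements printed for Hspe1 lie inside the annotated Hspd1 gene. Among 8 mitochondrial proteases and unfoldases, 4 rose and 3 fell (median 0.19). Lonp1, a matrix protease, rose by 0.35 (adjusted p = 1.05e-06) from 119 ± 3.04 to 152 ± 1.23 CPM (SD, n = 4 each), and Spg7, of an inner membrane protease, by 0.44 (adjusted p = 1.73e-06). Htra2, of the space between the membranes, rose by 0.66 (adjusted p = 2.19e-07), with 43.7% of its exonic bases under exons on the opposite strand.

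Other heat shock factors and known HSF targets were split, with 3 of 8 higher and 3 lower (median -0.14). Hsf4 had 0.279, 0.495, 0.292 and 0.285 CPM in the intact and 1.01, 0.840, 1.02 and 0.673 CPM in the deleted libraries and rose by 1.38 ± 0.25 (SE; adjusted p = 0.000368, edgeR). Hsbp1, which binds heat shock factors, rose by 0.17 (adjusted p = 0.00253). Of the further targets listed, Ubb rose by 0.16 (adjusted p = 0.00465). Cryab, a small heat shock protein gene, fell by 0.65 (adjusted p = 0.0144) and Mrpl18 by 0.16 (adjusted p = 0.0154), and Serpinh1, a collagen chaperone, did not pass.

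Genes whose promoter windows held a heat shock element went both ways. The 2-unit heat shock element was in 22 of the 87 chaperone windows (25.3%, 20 genes), against 15.1% of all 32851 windows and 11.8% of the windows of genes tested. It was in 7 of 24 windows of genes called higher (29.2%), 9 of 37 of those called lower (24.3%) and 3 of 19 of those not called (15.8%). Among genes with the element, 7 rose, namely Hspa1a, Hspa1b, Hspb1, Hspb6 (in the window of its second start only), Dnaja1, Dnajb4 and Dnajc10. Another 8 fell, namely Hspd1, Hspe1, Hsph1, Cct2, Cct5, Cct6a, Dnaja4 and Dnajc27. Hsp90aa1, Hsp90ab1, Hspa8, Hspa9 and Hsf1 were among the genes without a window, so no motif was searched for in them. The 3-unit form, GAANNTTCNNGAA or TTCNNGAANNTTC, was in 6 chaperone windows (6.90%), against 0.603% of all windows. These were windows of Dnajb6, Hspd1, Hspe1 and Hsph1, none of them called higher. The windows of Hspd1 and Hspe1 with the element cover almost the same bases. The windows of Hsph1 overlap each other, as do those of Dnajb6. The same element is therefore counted more than once, also in the 2-unit counts. TATAAA, on either strand anywhere in the window, was in 4 chaperone windows (4.60%), against 13.6% of all windows and 7.54% of the windows of genes tested. These were windows of Dnajc19, Dnajc24, Hspb6 (second start) and the untested Hspb3, and the first 3 of these genes rose. On the gene strand close before the start it was only in those of Dnajc24 and Hspb6 (2.30%), against 2.14% of all windows and 1.25% of the windows of genes tested. CCAAT was in 41.4% of chaperone windows and 37.4% of all windows. A match is a string of letters and not a measured binding site.

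Gene structure and neighbours were also looked at. Of the 9 chaperone genes with a single exon, 4 could be tested (Hspa1a, Hspa1b, Dnajb3 and Dnajc30), and all 4 rose, where 35.7% of all 342 single-exon genes tested were higher and 58.8% called in either direction. Genes that start within 1000 bases of a member on the opposite strand gave 17 pairs, and both genes were called in 11 of them. In 8 of these the directions were the same. With 63.5% of all genes tested called, many pairs can have both called. The same counts over all such pairs of genes were not made, so no result about the members follows. Of the 8, Hspa1a and Hspa1l, Cct3 and Tsacc, Cct8 and B130034C11Rik, and Dnaja1 and Gm6297 were higher. Hspd1 and Hspe1, Hspb11 and Lrrc42, Tcp1 and Mrpl18, and Cct5 and Atpsckmt were lower. In the other 3 of the 11 pairs the directions were opposite: Hspb6 rose and Proser3 fell, Dnajb4 rose by 0.70 while Fubp1, 339 bases away, fell by 0.21, and Cct6a fell by 0.12 while Psph, 103 bases away, rose by 0.19. In 3 further pairs the member did not pass and the neighbour rose: Hsf2 beside 4930467K11Rik, which rose by 4.02, Hspa14 beside Cdnf, which rose by 1.20, and Dnajc8 beside Atpif1, which rose by 0.26. Reads of close or overlapping neighbours cannot be assigned to a strand in these libraries.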

How the data were processed

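Unstranded libraries of polyadenylated RNA were made from 8 embryos, 4 in each genotype, per the labels' protocols. The authors deposited raw counts per gene, not normalised, with a transcript length for each gene. Subread 1.5.0, featureCounts, bcl2fastq 1.8.4 and build mm10 are listed, with no role or order, per the submitters' processing notes. How reads with several matches were handled, and which annotation was counted, is not stated there. The 8 separate count lists were identical to the columns of the matrix, and no column was left unused. Symbols came from a RefSeq table of GRCm38.p6 by gene ID, for 25275 of 27179 identifiers. The other 1904, with 0.490% to 1.639% of the counts of a library, stayed in totals and tests. Exon overlaps and exon numbers came from GENCODE M21, which held 83 of the 84 genes.

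Genes passing filterByExpr (16074) were compared with edgeR 4.0.16 in R 4.3.3, by the quasi-likelihood test with robust estimation, TMM factors and no covariate over all 8 libraries. Adjusted p-values are Benjamini-Hochberg over these genes, and the threshold was 0.05. "Higher" and "lower" genes passed it, and SE was the absolute fold change divided by the root of F. Levels are CPM on TMM-scaled library sizes, and CPM per kilobase uses the deposited length. The procedure was tested on simulated data. Named with values in every library were the members of each family past the threshold with an absolute log2 fold change of at least 0.5, the pair of smallest p, and the best-known gene of each class, with the 3 of smallest p in each partner list. The values of 1 gene that this rule takes are not reported here. Other genes given with values were chosen after their values were seen. The members and lists were chosen with earlier results of these data known. Splits by protein sequence were not analysed here, and replicate numbers belong to different embryos. The alternatives were other size factors, other filters, DESeq2 1.42.0, limma 3.58.1 (voom, without and with quality weights), a replicate block, a test against a 1.5-fold change, leaving out each library, the sum of Hspa1a and Hspa1b, and a 3-unit element. A fit without deleted replicates 2 and 3, the libraries with the highest meningeal marker sums, was added after seeing the data.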

Additional observations from a re-analysis of the deposited data

Results flagged for a closer look

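In 6 of 64 groups of 4 libraries checked over the named genes, 1 library stood apart from the other three by more than Dixon's 95% limit for the gap over the group's range, which chance does in about 1 of 20 groups. Cct2 was 304 CPM in intact replicate 3 against 322 to 323 CPM in the others, and Dnaja1 was 101 CPM in the same library against 94.1 to 94.8 CPM. Dnajc16 was 33.4 CPM in intact replicate 2 against 34.2 to 34.3 CPM, and 45.8 CPM in deleted replicate 4 against 48.3 to 48.7 CPM. Dnajc17 was 7.08 CPM in deleted replicate 4 against 6.78 to 6.81 CPM. Hspb11 was 6.64 CPM in intact replicate 4 against 6.01 to 6.09 CPM. In each of these genes the gap was smaller than the distance between the groups.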

How the results depend on the processing

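Of the 51 chaperone genes called, all 51 were called again with median-ratio factors, DESeq2, limma voom without and with quality weights, no filter and the replicate block. With library totals or upper-quartile factors, which moved the median of all genes by 0.06 on the log2 scale, 26 were higher and 24 lower (46 of the 51 among them), and all genes split into 5894 higher and 4416 lower or 5837 and 4480, against 4919 and 5290. Leaving out 1 library gave 22 to 23 higher and 27 to 30 lower, and 9586 to 10127 genes in all, with the heat shock factors at 1 to 2. Without deleted replicates 2 and 3, 19 were higher and 27 lower. The embryos' numbers do not pair the libraries (deviations of same-numbered libraries correlated at -0.229, 0.00519, -0.000469 and -0.455), and the block gave 9665 genes in all.

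Tested against a 1.5-fold change, 1748 genes passed (932 higher, 816 lower), 10.9% of those tested, with 3 chaperone genes higher (Cct6b, Hspb6, Hspa2) and 2 lower (Hspa12a, Dnajc3). By family these were 2 HSP70, 1 small heat shock protein, 1 DNAJC and 1 chaperonin gene, and 0 of the HSP90, DNAJA, DNAJB, mitochondrial chaperonin and heat shock factor genes. The partner lists kept 1 (HSP70), 0 (HSP90), 3 (prefoldin), 4 (ER), 0 (mitochondrial proteases) and 2 (other factors and targets). A 1.5-fold change is larger than most changes seen here.

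The sign of Hsp90aa1 turned with upper-quartile factors (0.0437), library totals (0.0477) and the filter at a CPM above 1 (0.0135), and on leaving out intact replicate 2, intact replicate 4, deleted replicate 1 or deleted replicate 3 (-0.0365 to 0.0124 over all single libraries left out), and that of Hspa8 without intact replicate 4 (-0.190 to 0.0068 over all). Neither gene passed in any of these, and the cause was not tested. Counts below 20 in a library, as for Hspb1 and Cct6b in intact cortex, limit the precision of their folds.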
